A study of Mus musculus with 5 samples.

Results

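Doublecortin, its relatives DCLK1 and DCLK2 and 7 other proteins of the neuronal microtubule and growth cone machinery are described here. The description rests on the NEUROD2 binding sites around their genes. The 10 genes were Dcx, Dclk1, Dclk2, Map1b, Map2, Mapt, Tubb3, Stmn1, Stmn2 and Gap43, chosen by name from 21755 protein-coding genes on the autosomes and chromosome X. For each gene, peaks were taken whose midpoint lay inside the longest annotated transcript or within 50 kb of either end. Overlapping peaks were merged into regions, which gave 99 regions at the 10 genes out of 53833 in the whole data set. Of these, 63 held peaks of at least 2 antibodies, out of 32261 such regions in all, and they are called shared regions below.

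NEUROD2 was mapped by chromatin immunoprecipitation and sequencing (ChIP-Seq) in the cerebral cortex of BALB/c mouse embryos at E14.5, pooled over several litters. A set of 3 libraries was made with a mouse antibody (ab1) and a pair of rabbit antibodies (ab2, ab3) to NEUROD2, and 2 libraries with GFP antibodies of the same host species served as controls for peak calling. Each antibody has 1 library, so the libraries are 3 readings of a single condition, no antibody has a replicate, and there is no contrast between conditions to test. Peaks of ab2 and ab3 were called against the same GFP library. Called peaks numbered 51841 in the ab1 library, 35310 in that of ab2 and 7470 in that of ab3. The peak score is −log10 of the MACS p-value multiplied by 10, starts at 50, and is not scaled between libraries, so that scores are compared below within an antibody and not between antibodies. Read depth per library was not used here, and intervals given for shares are 95% Wilson intervals that cover counting error alone. The tissue is a mixture of progenitors and neurons, and peak lists carry no expression value by which its cell types could be checked.

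NEUROD2 is a basic helix-loop-helix transcription factor of young cortical excitatory neurons that binds DNA at E-boxes, short motifs of the form CANNTG. Migrating neurons rebuild their microtubules continuously. Doublecortin (DCX) and its kinase relatives DCLK1 and DCLK2 bind and stabilise microtubules, the proteins MAP1B, MAP2 and tau (Mapt) bind along axonal and dendritic microtubules, TUBB3 is the β-tubulin typical of neurons, the stathmins STMN1 and STMN2 bind free tubulin dimers and favour disassembly, and GAP43 is a membrane-bound protein of the growth cone. Loss of DCX function in humans disturbs cortical layering, and DCX is widely used as a marker of migrating neurons.

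Windows from regions of these loci that hold the motif are shown first, so that its form can be seen, and they are not in every case the strongest region of the gene. Each window of 120 bp is the plus strand of GRCm38 (mm10), written 5′ to 3′. Capitals mark the extended E-box, a hexamer followed by G or T on either strand. The hexamer is CAGCTG, or the form CAGATG with its complement, read as CATCTG, or the form with central AT, written CATATG. At Dclk1, Dclk2, Map2, Stmn1 and Gap43, the region with all 3 antibodies and the highest ab1 score was cut at its midpoint. The windows of Dclk1 and Map2 each held 1 extended E-box, while those of Dclk2, Stmn1 and Gap43 held 0. The corresponding Map1b window lies in an annotated untranslated exon and is not shown.
Dclk1, intron 3, chr3:55347894-55348013: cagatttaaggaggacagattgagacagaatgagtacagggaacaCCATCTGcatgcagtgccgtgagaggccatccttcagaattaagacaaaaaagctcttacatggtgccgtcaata
Map2, intron 6, chr1:66388697-66388816: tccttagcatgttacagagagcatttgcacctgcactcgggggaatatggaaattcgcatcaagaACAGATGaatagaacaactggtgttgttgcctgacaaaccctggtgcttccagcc
At Stmn1 and Gap43, a window centred on the ab3 peak of the same region held the motif. So did the ab3 peak of a region downstream of Map1b. The ab3 windows of Dclk1 and Dclk2 held 0 within 120 bp. The 3 windows shown were chosen after the data had been examined.
Stmn1, upstream, chr4:134430622-134430741: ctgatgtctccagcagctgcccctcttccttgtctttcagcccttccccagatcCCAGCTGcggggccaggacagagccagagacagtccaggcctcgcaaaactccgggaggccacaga
Gap43, intron 2, chr16:42255752-42255871: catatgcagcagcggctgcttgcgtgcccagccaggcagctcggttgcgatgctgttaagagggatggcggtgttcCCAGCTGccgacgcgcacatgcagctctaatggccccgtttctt
Map1b, downstream, chr13:99397297-99397416: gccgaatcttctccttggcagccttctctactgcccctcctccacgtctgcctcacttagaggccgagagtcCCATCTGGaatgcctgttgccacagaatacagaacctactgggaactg
Dcx and Tubb3 had no region with all 3 antibodies. For them the windows are midpoints of shared regions with the motif, 2 in intron 3 of Dcx and 1 in intron 1 of Tubb3.
Dcx, intron 3, chrX:143906808-143906927: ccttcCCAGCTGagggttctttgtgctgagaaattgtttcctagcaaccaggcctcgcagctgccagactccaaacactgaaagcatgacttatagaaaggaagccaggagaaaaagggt
Dcx, intron 3, chrX:143902422-143902541: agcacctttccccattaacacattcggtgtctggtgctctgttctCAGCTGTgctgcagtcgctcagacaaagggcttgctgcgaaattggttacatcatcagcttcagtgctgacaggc
Tubb3, intron 1, chr8:123412845-123412964: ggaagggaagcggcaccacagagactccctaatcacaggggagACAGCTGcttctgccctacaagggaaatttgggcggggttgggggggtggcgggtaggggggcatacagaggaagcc
The last set is the 250 bases upstream of 2 start sites in RefSeq that lay within shared regions, each on the strand of its gene. The start of Map1b had the highest promoter score among the 10 genes, and the internal start of Dclk1 lies within its transcript span. Neither sequence held an extended E-box.
Map1b, minus strand, chr13:99516603-99516852: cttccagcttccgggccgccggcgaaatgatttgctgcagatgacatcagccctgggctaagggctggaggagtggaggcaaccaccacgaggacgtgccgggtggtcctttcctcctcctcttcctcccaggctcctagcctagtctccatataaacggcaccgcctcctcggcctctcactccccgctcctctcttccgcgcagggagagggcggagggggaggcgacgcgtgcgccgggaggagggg
Dclk1 internal start, plus strand, chr3:55461478-55461727: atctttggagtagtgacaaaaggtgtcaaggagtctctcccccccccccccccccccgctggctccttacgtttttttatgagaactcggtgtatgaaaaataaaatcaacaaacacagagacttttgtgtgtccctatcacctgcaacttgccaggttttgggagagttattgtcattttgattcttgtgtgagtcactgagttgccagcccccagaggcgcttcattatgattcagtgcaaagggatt

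NEUROD2 was bound at nearly the whole set. Shared regions lay in the windows of 9 of the 10 genes, all but Stmn2, against 68.2% of protein-coding genes. Windows grow with transcript length, from 105.5 kb at Stmn1 to 396.7 kb at Dclk1, and counts per window were not adjusted for it. Regions with all 3 antibodies lay at 6 genes, with 4 at Map1b, 3 at Dclk2, 2 each at Dclk1 and Gap43 and 1 each at Map2 and Stmn1, against 26.9% of protein-coding genes. All 13 of these regions were 15.7 to 298 kb from the transcription start site (TSS) of the longest transcript. A shared region lay within 1 kb of that TSS at 7 genes, namely Dclk2, Map1b, Map2, Mapt, Tubb3, Stmn1 and Gap43, against 20.9% of protein-coding genes. With peaks of a score of at least 100 alone, 4 genes kept such a region, and those of Dclk2, Map2 and Gap43, whose ab2 scores were 50.9 to 59.1, did not count as shared. The share of protein-coding genes at this minimum is not given here, so the 4 cannot be set against 20.9%. These shares are descriptions of 10 genes picked by name with earlier results of these data known, and no test was made.

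**Figure D1:**
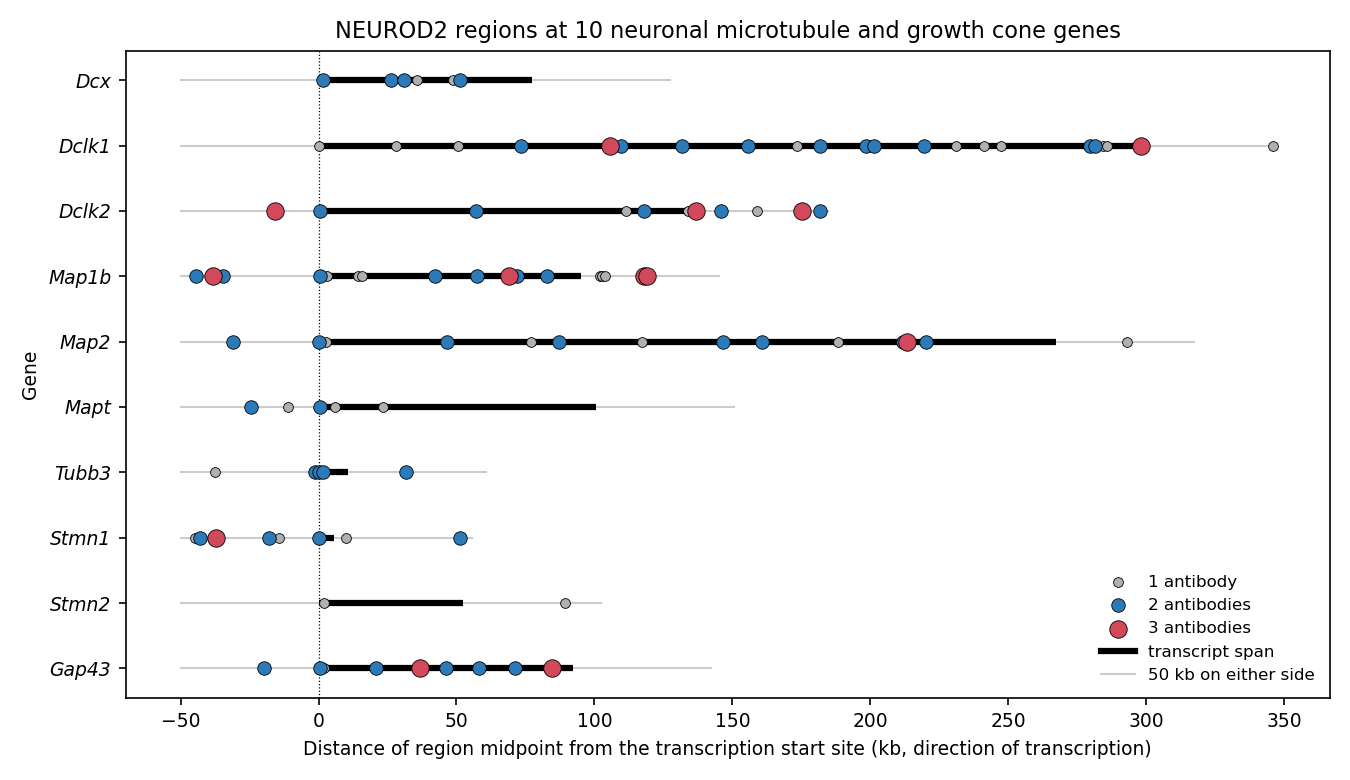
Midpoints of all 99 regions along the 10 genes, by distance from the TSS in kb in the direction of transcription. Thick lines are transcript spans, thin lines the 50 kb on either side, and colour and size give the number of antibodies (1, 2 or 3). The 13 regions with 3 antibodies lie away from the dotted line of the TSS, where regions of 2 antibodies sit at 7 genes.

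Dcx itself had peaks of ab1 and ab2 alone, while the related kinases Dclk1 and Dclk2 also had ab3 peaks. Dcx (ENSMUSG00000031285, chrX:143855842-143933311, minus strand) had 4 shared regions, all in introns and none with ab3. The one nearest its start lay 1.71 kb inside intron 1, with a score of 476 for ab1 and 236 for ab2, and held no extended E-box in its central 200 bp. The other Dcx regions were all in intron 3, at 26.4, 30.8 and 51.2 kb from the start, and were weaker, with ab1 scores of 55.7, 158 and 103 and ab2 scores of 111, 90.1 and 72.6. The motif was present in the central 200 bp at 26.4 and 30.8 kb, as in the windows printed above.

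Dcx is the gene of the set on chromosome X, where shared regions were sparse in these libraries. Chromosome X held 508 shared regions, or 2.97 per Mb, against 12.9 per Mb on the autosomes, and 37.2% of its 948 protein-coding genes had a shared region in the window. With 2.25 shared regions per 100 kb, Dcx exceeded 73.9% of all protein-coding genes and 94.4% of those on chromosome X. Male embryos carry 1 copy of this chromosome, and the part of copy number in these counts was not tested.

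Dclk1 (ENSMUSG00000027797, chr3:55242364-55539068, plus strand) encodes a doublecortin domain joined to a kinase domain and had 12 shared regions in a window of 397 kb. At its longest-transcript TSS there was a single peak, of ab1 at 0.317 kb with a score of 210, the highest of the 29 regions seen with ab1 alone. The strongest region lay in intron 3, 106 kb from the start, with scores of 2352 for ab1, 1540 for ab2 and 202 for ab3. It held 5 extended E-boxes over its length. A second region with all 3 antibodies lay just past the 3′ end, 298 kb from the start, and had an ab1 score of 1628, an ab2 score of 899 and an ab3 score of 100.1.

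A shared region of Dclk1 in intron 5, 219 kb from the longest-transcript TSS, lay 68 bp from an internal annotated start. It scored 415 for ab1 and 174 for ab2, and the whole region held 0 extended E-boxes. Dclk1 is known to give shorter transcripts from internal starts. The 250 bases printed above precede a RefSeq start that lies in the same region at another position. The remaining 9 shared regions scored 55.2 to 529 for ab1 and 55.8 to 307 for ab2. With 1 start per gene, that of the longest transcript, 9 of the 12 were closest to Gm21954, a predicted gene on the opposite strand within Dclk1, and with all annotated starts every one of the 12 was closest to a start of Dclk1.

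Dclk2 (ENSMUSG00000028078, chr3:86786153-86920852, minus strand), the other doublecortin-like kinase of the set, had its strongest regions outside the transcript. Its 3 regions with all 3 antibodies lay 15.7 kb upstream and 137 and 175 kb from the start beyond the 3′ end. The upstream region scored 1679 for ab1, 732 for ab2 and 121 for ab3. The one at 137 kb scored 1921, 915 and 122, and the one at 175 kb scored 2257, 1319 and 292, in the same order of antibodies. At the Dclk2 TSS the region was weak, with 103 for ab1 and 50.9 for ab2, close to the lowest score the lists hold. It was nevertheless the single promoter region of the set with an extended E-box in its central 200 bp. All 8 shared regions had Dclk2 as the closest protein-coding TSS.

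Among the microtubule-associated proteins, Map1b (ENSMUSG00000052727, chr13:99421446-99516540, minus strand) was bound most densely. Its 11 shared regions in 195 kb gave 5.64 per 100 kb, above 96.7% of protein-coding genes and the highest density of the 10 with flanks of 50 kb. The region at its TSS, 0.637 kb into the gene, scored 869 for ab1 and 401 for ab2, the highest promoter scores of the set for both antibodies and above 89.1% of all promoter regions for ab1. In intron 2, 69.1 kb from the start, a region scored 1330 for ab1, 310 for ab2 and 63.4 for ab3. That region lay 185 bp from the annotated start of a shorter Map1b transcript, and another shared region, with 337 for ab1 and 150 for ab2, lay 6 bp from a further one.

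Map1b also had 3 regions with all 3 antibodies outside the gene, at modest scores. The upstream one, 38.4 kb from the TSS, scored 375 for ab1, 259 for ab2 and 66.0 for ab3. The 2 downstream ones, 118 and 119 kb from the start, scored 392 and 808 for ab1, 289 and 494 for ab2, and 52.4 and 85.2 for ab3, and both had an extended E-box in the central 200 bp. By the longest transcript of each gene their closest TSS was that of Mrps27, which encodes a mitochondrial ribosomal protein, and by all annotated starts it was one of Map1b. The ab3 scores of 4 Map1b regions were thus at most 85.2, against 202 at the strongest Dclk1 region.

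Map2 (ENSMUSG00000015222, chr1:66175316-66442583, plus strand), whose product marks dendrites, had 9 shared regions over a window of 367 kb, or 2.45 per 100 kb. Its TSS region was centred 0.005 kb from the start, with 155 for ab1 and 59.1 for ab2, the ab1 score being above 32.1% of promoter regions. The region with all 3 antibodies lay in intron 6, 213 kb from the start, and had an ab1 score of 583, an ab2 score of 279 and an ab3 score of 52.0. Its E-box is among the sequences printed above. Map2 has 23 annotated start positions, and shared regions at 147 and 212 kb lay 32 and 5 bp from internal ones. The extended E-box was in the centre of 7 of the 9 regions. The 5 regions farthest from the start were closest to Unc80, which encodes a subunit of a sodium leak channel, by the longest transcript of each gene, and to an internal start of Map2 when all annotated starts were used.

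Mapt (ENSMUSG00000018411, chr11:104231390-104332090, plus strand), which encodes tau, had 2 shared regions in 200.7 kb and stood near the middle of all genes, at 0.997 per 100 kb and above 53.3% of them. The TSS region scored 403 for ab1 and 166 for ab2 at 0.677 kb, and the other lay 24.4 kb upstream with 117 for ab1 and 60.8 for ab2. Neither centre held an extended E-box. A further 3 regions at Mapt had an ab1 peak alone. Tau and MAP2 are related proteins, and their loci differed in that Map2 had intronic shared regions along its length while the body of Mapt had none past the TSS region.

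The tubulin gene Tubb3 (ENSMUSG00000062380, chr8:123411424-123422015, plus strand) is 10.6 kb long, and 3 of its 4 shared regions lay close together around the start. They were centred 1.18 kb upstream, 0.199 kb inside the coding part of exon 1, and 1.48 kb inside intron 1. The upstream region scored 183 for ab1 and 74.6 for ab2, the one at the start 426 and 190, and the intronic one 462 and 394. Extended E-boxes were in the centres of the flanking regions, with 6 over the whole intronic region, and there were 0 over the whole region at the start itself. The fourth region lay 31.7 kb from the start downstream, with 204 for ab1 and 79.7 for ab2. It was closest to the TSS of Def8 and lay 109 bp from an annotated start of that gene. No ab3 peak lay in the Tubb3 window.

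The stathmins stood near opposite ends of the set. Stmn1 (ENSMUSG00000028832, chr4:134468320-134473843, plus strand) had 5 shared regions in 106 kb, or 4.74 per 100 kb, above 94.3% of protein-coding genes. With flanks of 10 kb, or with the gene span alone, Stmn1 had 1 shared region. Its TSS region, at 0.226 kb, scored 684 for ab1 and 251 for ab2, above 84.7% of promoter regions for ab1. The strongest region, 37.3 kb upstream, had an ab1 score of 3100, an ab2 score of 2568 and an ab3 score of 484. The last 2 were the highest of the 10 genes for ab2 and ab3 and above 99.4% and 96.4% of shared regions with a peak of that antibody. The ab1 value of 3100 is a ceiling shared by 723 peaks. This region was closer to the TSS of Pafah2, an enzyme that degrades platelet-activating factor, than to that of Stmn1.

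Stmn2 (ENSMUSG00000027500, chr3:8509360-8561606, plus strand), which encodes the stathmin of growth cones, had no shared region. Its window of 152 kb held 2 isolated peaks. An ab2 peak of score 115 lay in intron 1 at 1.98 kb from the start, and an ab3 peak of score 56.6 lay 89.5 kb from the start. The latter was closest to Hey1, a repressor that acts below Notch, by the longest transcripts, and to a start of Stmn2 by all annotated ones. Both had an extended E-box in the central 200 bp. The ab2 peak was the strongest of the 6 regions seen with ab2 alone, and no ab1 peak lay in the window.

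Gap43 (ENSMUSG00000047261, chr16:42248442-42340651, minus strand) had 8 shared regions, 7 inside the gene, and every one was closest to the Gap43 TSS. Its strongest region, in intron 2 at 84.7 kb, scored 3100 for ab1, 1911 for ab2 and 346 for ab3. It was second to the Stmn1 region for ab2 and ab3. In intron 1 at 36.9 kb a region scored 1118 for ab1, 594 for ab2 and 90.9 for ab3. The TSS region at 0.512 kb scored 319 for ab1 and 58.9 for ab2. The 5 other regions scored 163 to 414 for ab1 and 65.8 to 221 for ab2, and 4 of these had an extended E-box in the centre.

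**Figure D2:**
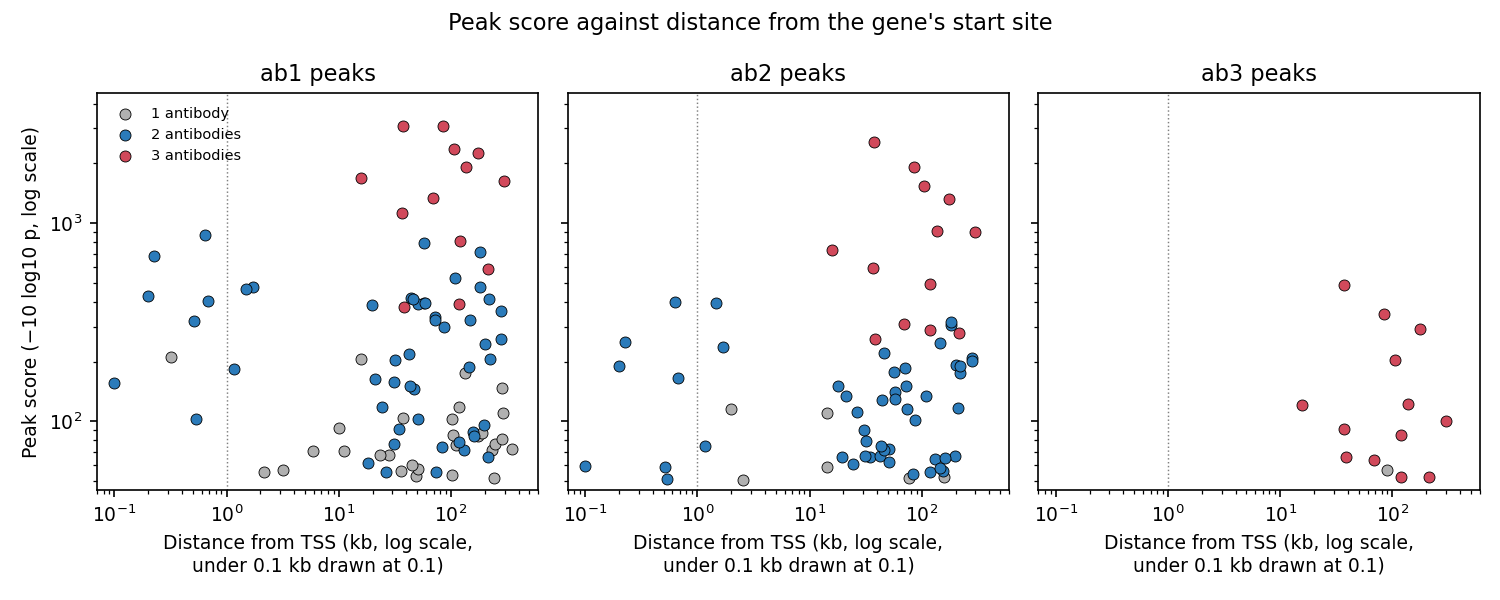
Peak scores (10 times −log10 p, log scale) of the regions at the 10 genes against distance from the gene's TSS (kb, log scale, values under 0.1 kb drawn at 0.1), 1 panel per antibody, coloured by the number of antibodies in the region. The dotted line marks 1 kb. Regions with 3 antibodies reach the highest scores for ab1 and ab2 and start at 15.7 kb, and the ab3 panel is empty below that distance.

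The antibodies found at the start sites were close to those at promoters in general. Of the 7 regions at a longest-transcript TSS, 0 held an ab3 peak, with a Wilson interval that reaches 35.4%, and the share over all 4102 shared regions within 1 kb of a protein-coding TSS was 7.87%, so that few ab3 peaks among 7 such regions are usual in these lists. Away from start sites 13 of 56 held one (23.2%, 14.1 to 35.8%), against 24.3% of all shared regions so placed, and both intervals overlap. Over all shared regions of the 10 genes, 13 of 63 or 20.6% (12.5 to 32.2%) held all 3 antibodies, against 22.2% of all shared regions. When every annotated start of a gene was counted, 12 shared regions at 8 genes lay within 1 kb of one, Dclk1 being added, against 24.9% of protein-coding genes, and 1 of them, in Map1b, had all 3 antibodies. With a peak of any antibody, a count added after the data had been examined, 8 genes had a region within 1 kb of the longest-transcript TSS, against 37.5% of protein-coding genes, and all 10 within 2 kb, against 40.0%. The ab3 list is the shortest, and its part in this count was not tested.

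The ab1 and ab2 scores put the regions in a similar order. Over the 63 shared regions, each of which held both antibodies, Spearman's rho was 0.813, against 0.845 over 32210 regions with both in the whole data. The regions share the libraries and overlapping positions, so the coefficient describes these lists.

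Most shared regions at these genes were intronic, as they are inside genes in general. Of the 63 shared regions, 43 lay inside the transcript, 39 of them in introns and 9 of those in intron 1, with 2 in coding exon parts and 2 in the 5′ UTR. Upstream there were 11 and downstream 9. Over the windows of all protein-coding genes, which can share a region, 36.2% of shared regions lay inside the transcript (68.3% here), 82.6% of those in introns (90.7% here) and 34.2% of the intronic ones in intron 1 (23.1% here). Per 100 kb, the 10 genes held 3.80 shared regions inside the transcripts and 2.00 in the flanks, while protein-coding genes as a whole held 1.73 and 1.48. The median distance from the TSS was 57.3 kb, against 36.9 kb over the windows of all protein-coding genes. Long genes have more room for distant regions, and Dclk1 and Map2 are 297 and 267 kb long. The part of gene length in the median distance was not tested. For 42 of the 63 regions the gene's own TSS was the closest protein-coding one when each gene was given the start of its longest transcript. With the starts of all annotated transcripts, a setting added after the data had been examined, it was 58 of 63, and the other 5 lay at Mapt, Tubb3 and Stmn1.

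The density of shared regions was above the median of protein-coding genes, 0.955 per 100 kb, at 9 of the 10 genes. In rising order it was 0 at Stmn2, 0.997 at Mapt, 2.25 at Dcx, 2.45 at Map2, 3.02 at Dclk1, 3.41 at Dclk2, 3.62 at Tubb3, 4.16 at Gap43, 4.74 at Stmn1 and 5.64 at Map1b. The counts behind these values are 0 to 12 regions per gene, and the exact 95% Poisson intervals, which cover counting error alone, overlap between all neighbours in this order. The interval was 0.121 to 3.6 at Mapt and 2.81 to 10.1 at Map1b. The number of genes above the median was 7 with peaks of a score of at least 100, and 6 with ab1 or with ab2 left out.

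**Figure D3:**
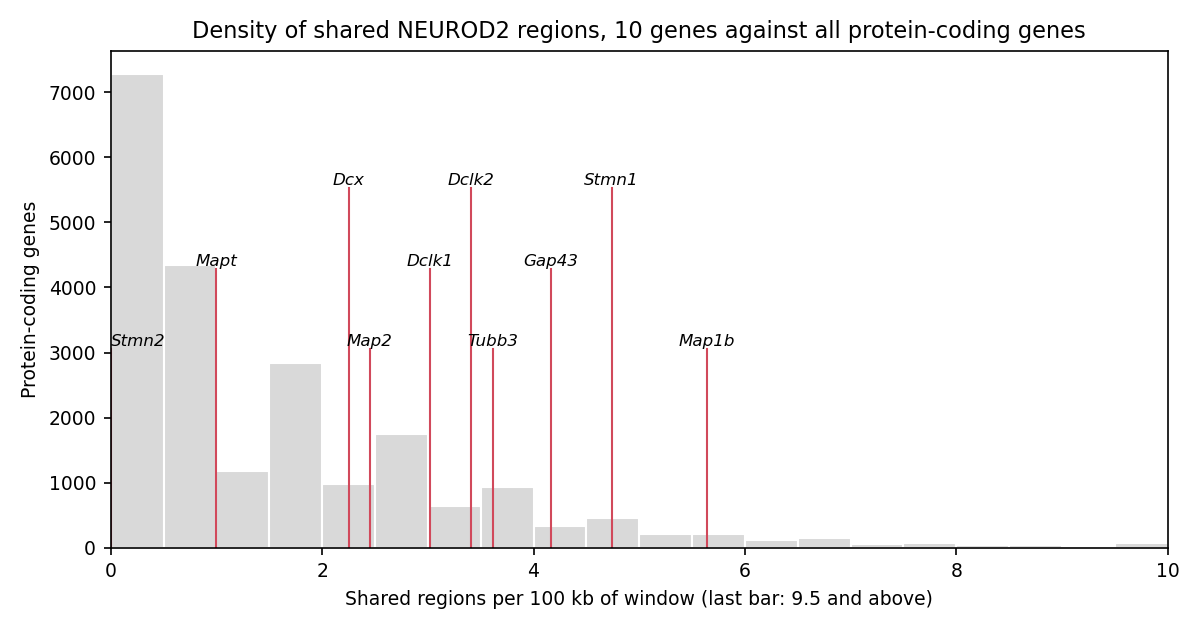
Number of protein-coding genes (bars, bins of 0.5) by shared regions per 100 kb of gene and flanks, with the 10 genes as labelled lines. Stmn2 stands at 0 and Mapt at 0.997, near the median of 0.955, and the other 8 lie between 2.25 and 5.64.

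Centres of 200 bp held the extended E-box in 31 of the 63 shared regions, or 49.2% (37.3 to 61.2%), against 59.6% of all shared regions. In windows of 200 bp placed 1000 bp outside the regions it was found in 23.8% on the left and 30.2% on the right. At the promoter regions it was in the centre of 1 of 7 (14.3%, against 20.8% of all regions within 1 kb of a protein-coding TSS), and away from promoters in 30 of 56 (53.6%, against 65.3%). The intervals of the shares for the 10 genes include the whole-data share at promoters and just include it away from them. Promoter centres had a median GC content of 67.5% and the other centres 49.5%, close to the whole-data medians of 68.0% and 49.5%. Anywhere in the region, the motif was found in 6 of the 7 promoter regions, against 75.9% of all promoter regions, and in 59 of all 63, against 90.3% of all shared regions.

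In the regions with all 3 antibodies, the share varied with where the window was placed. At the midpoint of the merged region, 6 of 13 held the extended E-box. Centred on the peak of ab1 or of ab2 it was 7 of 13, and centred on the ab3 peak, a placement chosen after the data had been examined, it was 11 of 13 or 84.6% (57.8 to 95.7%). In all 7160 regions of this kind in the data, the shares had the same order, from 63.4% at the midpoint to 64.1%, 64.6% and 73.3%. The ab3 midpoint lay 3 to 321 bp from that of the region, with a median of 104 bp. Anywhere in the region, all 13 held the motif, as did 96.1% of all regions with 3 antibodies.

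By antibody, the motif was in the centre of 55 of 92 ab1 peaks (59.8%), 35 of 71 ab2 peaks (49.3%) and 12 of 14 ab3 peaks (85.7%), or 64.9% ± 18.7 (SD, n = 3 antibodies). Over the whole lists it was in 59.4% of ab1 peaks, 59.2% of ab2 peaks and 72.5% of ab3 peaks. Among the core hexamers, CAGATG or its complement CATCTG was in the centres of 15 shared regions, CAGCTG in 14 and CATATG in 6. CAGATG was thus in 23.8% of the shared regions here and in 39.1% of all shared regions, CAGCTG in 22.2% and 23.4%, and CATATG in 9.52% and 10.6%. The 36 regions with a single antibody, mostly ab1 peaks with a median score of 76.0, held the extended E-box in 25 cases (69.4%, 53.1 to 82.0%), against 57.1% of the 21572 such regions in the data. In RefSeq, promoter windows of 300 bp were found for Dcx, Dclk1, Dclk2, Map1b, Map2 and Tubb3, and none of these 8 windows held the motif, which 26.3% of 32851 windows do.

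**Figure D4:**
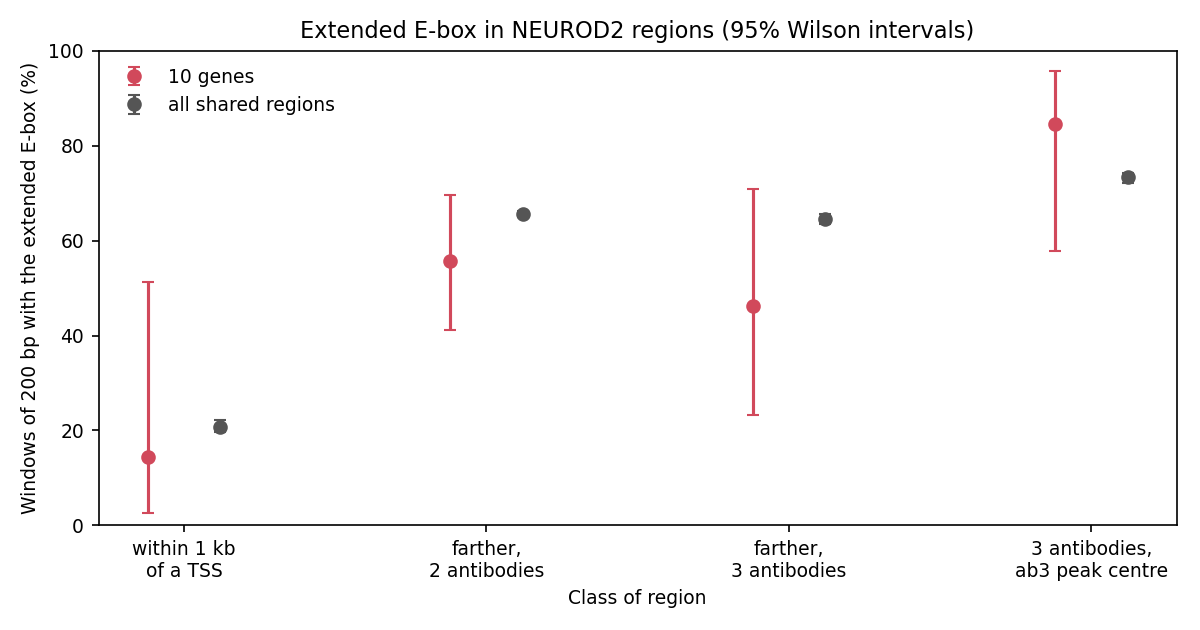
Percentage of 200 bp windows with the extended E-box, for regions of the 10 genes (red) and all shared regions (grey), with 95% Wilson intervals, by class of region. Windows sit at the region midpoint except in the last class, which is centred on the ab3 peak. The shares for the 10 genes run from 14.3% at start sites to 84.6% at ab3 peaks.

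A list of 39 further genes of the microtubule system, also chosen with earlier results of these data known, was set beside the 10. Shared regions lay at 34 of the 39 (68.2% of protein-coding genes), regions with all 3 antibodies at 17 (26.9%) and a shared region within 1 kb of the TSS at 17 (20.9%), and the median density was 1.65 per 100 kb, against 3.22 for the 10 genes. The highest densities were at Tuba1a, the α-tubulin of young neurons, with 15 shared regions and 14.4 per 100 kb, and at Cdk5r1, the activator of the neuronal kinase CDK5, with 10 and 9.60. The windows of Tuba1a and its neighbour Tuba1b overlap and share 9 regions. Stmn3, Basp1, Marcksl1, Nde1 and Ndel1 had 0 shared regions.

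The groups by role hold 2 to 8 genes, and their counts are given beside the shares over all protein-coding genes of 68.2% for a shared region, 26.9% for one with all 3 antibodies and 20.9% for one at the TSS. Most of these groups are too small for a count to be read against such shares. All 7 other tubulins had a shared region and 5 had one at the TSS, with a median density of 3.83. The 1 shared region of Tubb2a also lay in the window of Tubb2b, so these genes are not all separate counts. The 5 kinases and activators that modify microtubule proteins had a median of 4.21, and 4 of them had a region at the TSS. Among 7 other microtubule-binding proteins, all had a shared region and 1, Map6, had one at the TSS. The 8 end-binding proteins, which track or anchor microtubule ends, all had a shared region, 5 had one at the TSS, and 6 had one with all 3 antibodies. Regions with all 3 antibodies also lay at 3 each of the other tubulins and microtubule-binding proteins, 4 kinases or activators and 1 growth cone protein. They were absent from the other stathmins, the dynein and Lis1 complex and the severing enzymes. The 4 genes of the dynein and Lis1 complex, which moves the nucleus in migrating neurons, had a median of 0.604, with shared regions at Pafah1b1 and Dync1h1. The 3 severing enzymes had 1 region each, at densities of 0.657 to 0.830. Of the 3 other growth cone proteins Marcks alone had shared regions, and of the 2 other stathmins Stmn4 alone, so that Stmn2 was not the single member of its family with 0.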

How the data were processed

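Peaks of the 3 NEUROD2 libraries were used. Reads had been aligned by the authors with Bowtie (Galaxy, mm10), duplicate and multi-mapping reads dropped, and peaks called by MACS per library, with the GFP library from the matching host species as control. The deposited score is 10 times the −log10 of the MACS p-value, with a lowest value that corresponds to p = 1e-05, and was used as the authors gave it. A deeper library can give a higher score at the same occupancy. Peaks of 1 bp overlap or more were merged, midpoints were placed on GENCODE M21 transcripts of GRCm38, and sequence was read from the GRCm38 reference, which is not BALB/c. Promoter sequences came from RefSeq. The 10 genes and the 39 others were chosen with earlier results of these data known. All 10 are named, with their strongest shared region, the region nearest the TSS and the highest ab3 region. Other genes are named for the 2 highest and 2 lowest densities, with ties, and a few further ones were named after their values were seen. Merging, placement and motif search were tested on simulated data. Python 3.11.15, numpy 2.4.6, scipy 1.17.1, pandas 2.3.3, pysam 0.24.0 and matplotlib 3.10.9 were used. The alternatives were a higher score minimum, a stricter overlap, other windows, starts and motifs, and each antibody left out. The GFP reads were not analysed here.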

Additional observations from a re-analysis of the deposited data

How the results depend on the processing

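Of 121 values recomputed under alternatives, 39 that answer a comparison stayed within the spread or within 1.5 times the count and 11 moved, and of those for single genes or supporting counts 38 stayed and 33 moved. With a peak score of at least 100, the 10 genes kept 65 regions, 37 of them shared, and 4 genes had a shared region within 1 kb of the TSS. The share of all protein-coding genes with such a region at this minimum is not given here. The extended E-box share of shared regions was 27.0% in the central 100 bp and 77.8% with the loose motif CANNTG in 200 bp. With 1 antibody left out in turn, the number of shared regions ranged from 13 to 63, the median distance from 57349 to 105668 bp, and the genes with a shared region near the TSS from 0 to 7. Leaving out ab1 gave 13 and 0, as did leaving out ab2, because all 50 shared regions with 2 antibodies, at start sites and elsewhere, are pairs of ab1 and ab2. With ab1 or ab2 left out, Dcx, Mapt and Tubb3 had 0 shared regions, as did Stmn2 in every setting. The share of regions with all 3 antibodies cannot be given with 1 left out. Centring on the ab3 peak where there was one, chosen after seeing the data, gave 57.1%. No paired analysis was possible because no result comes from a test. With 1 library per antibody, no spread between embryos is known, and weak promoter regions at Dclk2, Map2 and Gap43 depend on the score minimum. So does the number of shared regions at Dcx, which was 4 in the main setting and 1 with a score of at least 100.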
